A study of Homo sapiens with 6 samples.

Results

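E2F1 mRNA fell in HCT116 cells treated with CSE, while the other members of the E2F and RB family changed less or did not pass the test. The genes described are the 10 listed members E2F1 to E2F8, RB1 and RBL1, found by symbol among the 20263 genes of the deposited table. All 10 had a line in the table, and all 10 were among the 12793 genes tested, with no value under 6.04 TPM in any sample. HCT116 is an established human colorectal cancer line. The treated group was 3 HCT116 samples labelled CSE, and its control was 3 HCT116 samples labelled wild type (WT). The title of the series concerns smoking, and CSE is therefore taken to mean cigarette smoke extract. Its dose, the exposure time and the solvent were not stated in the labels. RNA of each culture was read by poly(A) RNA-seq. Whether the 3 samples of a group were grown apart is not stated either, so p-values reflect sample-to-sample spread that may be only technical.

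E2F proteins bind DNA together with a DP partner and set the transcription of genes needed to enter and pass through S phase. E2F1, E2F2 and E2F3 are the classical activators, and E2F4 to E2F8 act mainly as repressors. Among the repressors, E2F4 and E2F5 need a pocket protein, E2F6 works with Polycomb proteins, and E2F7 and E2F8 bind DNA without DP. The pocket proteins RB1, RBL1 (p107) and RBL2 (p130) bind E2Fs and silence their targets until cyclin-dependent kinases phosphorylate them. Several family genes, E2F1 and RBL1 among them, are themselves known E2F targets. TPM, the unit here, are length-corrected shares of a library's transcripts, so levels can be set side by side between genes, but they say nothing of protein level or phosphorylation.

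The promoters of the family differ in whether they hold E2F-type letters, and those of 5 members are shown because E2F1, RBL1 and E2F4 changed with CSE while E2F2 and E2F3 carry the same kind of motif. Each line is the 250 bases before the RefSeq transcription start on GRCh38.p14, 5′ to 3′ on the gene's strand. Capitals mark matches on either strand to any of 4 spellings of an E2F-type motif (TTCCCGC or TTCGCGC or TTGCCGC or TTGGCGC).
E2F1, chr20:33686386-33686635, minus strand: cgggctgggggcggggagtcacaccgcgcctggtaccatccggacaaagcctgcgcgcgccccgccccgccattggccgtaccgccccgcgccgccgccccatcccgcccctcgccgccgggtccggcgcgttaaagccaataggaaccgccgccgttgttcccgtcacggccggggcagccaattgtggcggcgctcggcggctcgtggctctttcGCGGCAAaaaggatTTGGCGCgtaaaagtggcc
RBL1, chr20:37095998-37096247, minus strand: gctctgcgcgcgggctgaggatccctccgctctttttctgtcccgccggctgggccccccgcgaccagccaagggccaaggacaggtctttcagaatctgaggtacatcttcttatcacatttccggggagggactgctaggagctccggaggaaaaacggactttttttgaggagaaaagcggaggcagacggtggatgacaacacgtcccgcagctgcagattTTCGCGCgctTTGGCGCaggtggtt
E2F2, chr1:23531234-23531483, minus strand: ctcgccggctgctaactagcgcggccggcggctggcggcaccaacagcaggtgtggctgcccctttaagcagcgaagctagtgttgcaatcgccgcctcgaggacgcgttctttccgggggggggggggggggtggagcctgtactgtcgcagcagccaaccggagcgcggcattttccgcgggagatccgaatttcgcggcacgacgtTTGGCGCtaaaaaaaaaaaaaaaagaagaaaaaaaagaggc
E2F3 (first start), chr6:20401629-20401878, plus strand: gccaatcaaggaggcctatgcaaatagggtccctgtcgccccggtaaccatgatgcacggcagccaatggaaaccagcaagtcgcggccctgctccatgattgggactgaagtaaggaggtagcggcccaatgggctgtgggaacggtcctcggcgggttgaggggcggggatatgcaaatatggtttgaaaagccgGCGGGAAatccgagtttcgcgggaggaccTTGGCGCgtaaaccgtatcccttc
E2F4, chr16:67191905-67192154, plus strand: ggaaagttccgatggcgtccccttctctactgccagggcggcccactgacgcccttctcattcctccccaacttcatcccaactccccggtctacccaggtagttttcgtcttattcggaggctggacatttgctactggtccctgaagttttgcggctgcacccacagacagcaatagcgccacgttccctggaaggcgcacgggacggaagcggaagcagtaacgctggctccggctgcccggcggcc
Of 35116 RefSeq promoters of the same length, 10.9% held at least 1 such match and 1.35% at least 2. The E2F1 promoter held 2, at -33 and -19 bases from the start (first base of each match), and the RBL1 promoter held 2, at -25 and -15. The E2F2 promoter held 1, at -41, and the first of the 2 annotated E2F3 starts had 2, at -53 and -24. E2F7 held 2 farther out, at -176 and -133, while E2F4, E2F6 and the second E2F3 start held 0. A CHR-type motif (TTTGAA or TTCGAA, in 14.3% of promoters), the element through which the repressive DREAM complex holds down mitotic genes, was found in 1 of these windows, at -65 of the first E2F3 start. The CCAAT box (in 32.0% of promoters) was present 3 times in E2F1, 4 times in the first E2F3 window and 4 times in E2F7. None of the E2F-type matches overlapped a CHR-type or CCAAT match in these windows. RefSeq promoters were matched for 8 of the 10 members. The single RB1 entry lies inside the annotated gene body and was left out, and E2F5 and E2F8 were not matched. By the GENCODE 29 gene positions given below, the windows of E2F1, E2F6 and E2F7 also reach a short way into the gene. The E2F1 match at -19 lies in that stretch. The window of the second E2F3 start lies wholly inside the gene. A match is a string of letters and not a measured binding site.

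**Figure D1:**
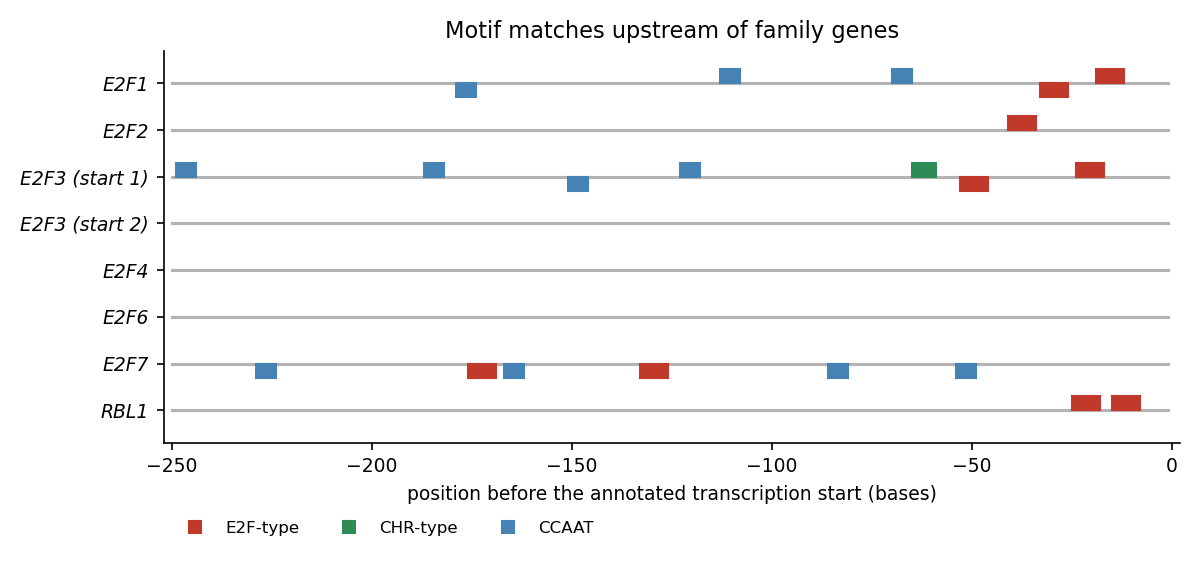
Positions of motif matches in the 250 bases before the annotated start of family genes (horizontal axis, bases before the start; boxes above a line lie on the gene's strand and boxes below it on the other strand). E2F-type matches of E2F1, E2F2, the first E2F3 start and RBL1 lie between -53 and -9, whereas E2F4 and E2F6 have 0.

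As a set, the family moved about as often as any gene. limma, fitted on log2(TPM + 1) over 12793 genes with Benjamini-Hochberg adjustment, called 50.1% of all genes at an adjusted p under 0.05 (24.5% higher and 25.6% lower in CSE). Of the 10 members, 1 was called higher (RB1) and 4 lower (E2F1, E2F4, E2F6 and RBL1), and 5 did not pass. The values of the groups did not overlap for 6 members, 1 higher and 5 lower, beside 57.4% of all genes. The median log2 fold change was -0.12 over the members and -0.0039 over all genes tested. The share called was thus near the background, and the results below are about single genes.

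**Figure D2:**
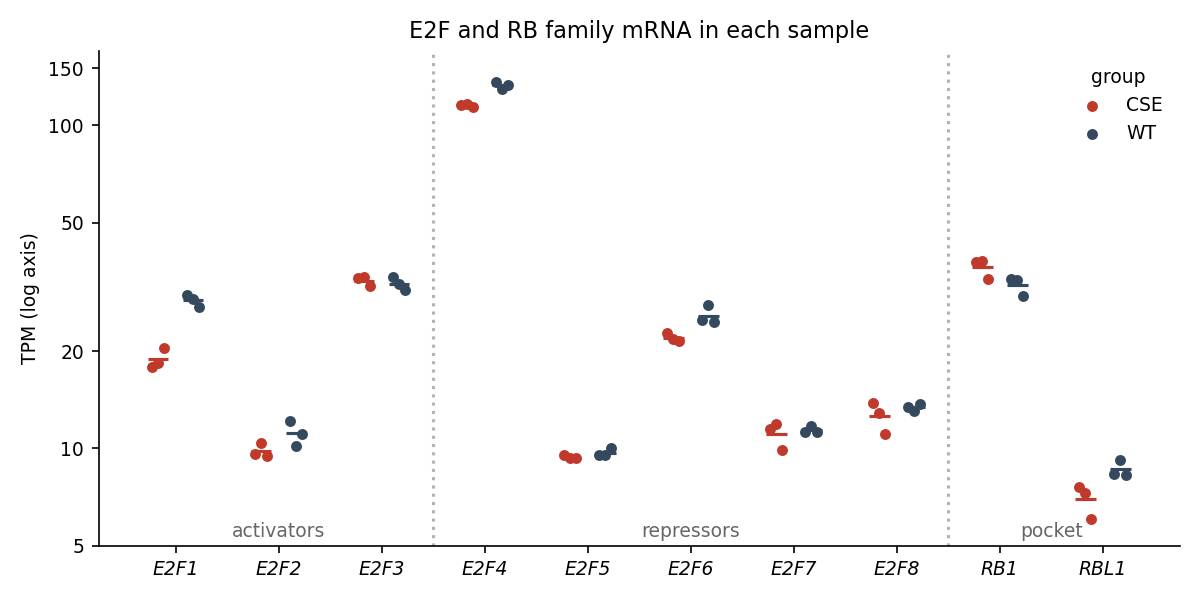
TPM of each family gene (logarithmic vertical axis) in the 3 CSE and 3 WT samples; points are samples and bars are group means. E2F4 is highest in both groups. On this logarithmic axis the gap between groups is widest for E2F1, at 17.9 to 20.5 TPM in CSE against 27.5 to 29.9 TPM in WT.

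Among the activators, E2F1 fell and E2F2 and E2F3 did not pass the test. E2F1, the founding activator and itself an E2F target (ENSG00000101412, chromosome 20, 33675683 to 33686404, minus strand), had 17.9, 18.4 and 20.5 TPM in the CSE samples, against 29.9, 29.1 and 27.5 TPM in the WT samples. Every CSE value was below every WT value, and CSE replicate 3 was the CSE sample nearest to WT. The means were 18.9 ± 1.38 TPM in CSE and 28.8 ± 1.25 TPM in WT (SD, n = 3 each), so E2F1 fell by 34.4% (log2 fold change -0.59, SE 0.0567, limma adjusted p = 2.69e-08). Of the 12793 genes tested, 213 had a larger fall, and 2.88% had a larger change in either direction. E2F1 passed as lower under all 15 alternative settings, with log2 fold changes between -0.65 and -0.55.

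E2F2, an activator like E2F1 (chromosome 1, 23506430 to 23531220, minus strand), had 9.64, 10.4 and 9.50 TPM in CSE, against 12.2, 10.2 and 11.1 TPM in WT. The groups overlapped through WT replicate 2. Its log2 fold change of -0.16 (95% interval -0.30 to -0.019) narrowly missed the threshold (limma adjusted p = 0.0548). It passed under 5 of the 15 alternatives, among them leaving out WT replicate 2 (-0.22, adjusted p = 0.0246) or CSE replicate 2 (-0.20, adjusted p = 0.0298), and adjusted p over its alternatives ran from 0.0138 to 0.279.

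E2F3, which is transcribed from 2 starts into a long and a short form (chromosome 6, 20401906 to 20493715, plus strand), was the most abundant activator. It had 33.7, 33.8 and 31.7 TPM in CSE, against 34.0, 32.2 and 30.9 TPM in WT, and the values intermingled. The log2 fold change was 0.031 (95% interval -0.073 to 0.13, limma adjusted p = 0.63), and its sign turned when mitochondrially encoded genes were left out (-0.0255). A gene-level value does not separate the forms from the 2 starts.

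**Figure D3:**
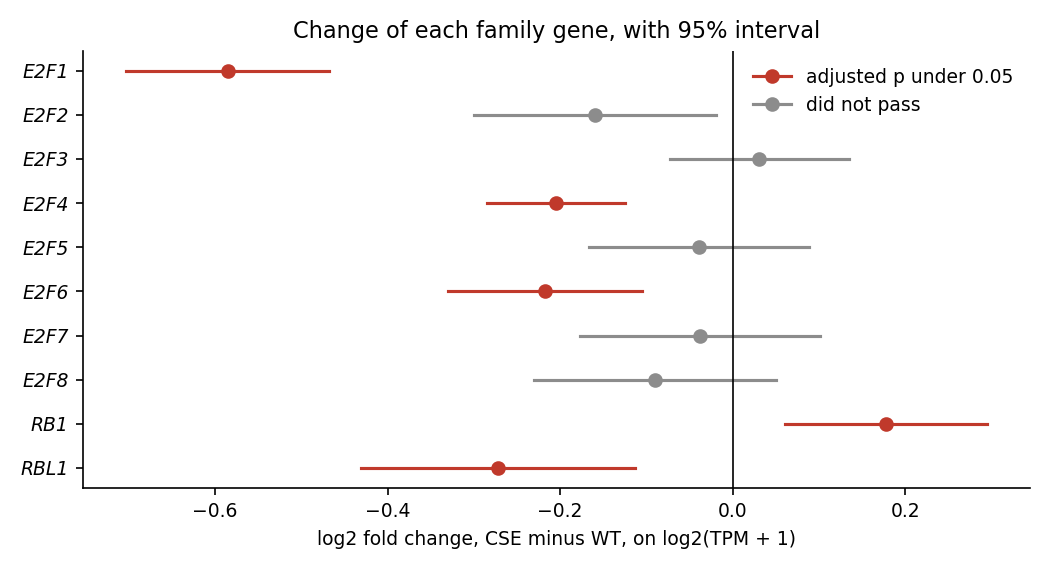
Log2 fold change of each family gene, CSE minus WT on log2(TPM + 1), with its 95% interval from limma; red marks an adjusted p under 0.05. E2F1 lies farthest from 0 at -0.59, RB1 is the called member above 0 at 0.18, and the intervals of E2F3, E2F5, E2F7 and E2F8 span 0.

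Within the activators, E2F1 made up a smaller share of the transcripts in each CSE sample than in any WT sample. E2F1 supplied 29.2%, 29.4% and 33.2% of the summed E2F1 to E2F3 TPM in the CSE samples, against 39.3%, 40.7% and 39.5% in the WT samples. E2F3 supplied 55.1%, 54.0% and 51.4% in CSE, against 44.7%, 45.0% and 44.6% in WT. The ratio of E2F1 to E2F3 within a sample was 0.573 ± 0.0629 in CSE and 0.891 ± 0.0120 in WT, and that of E2F1 to E2F2 was 1.92 ± 0.204 in CSE and 2.60 ± 0.220 in WT (SD, n = 3 each). In an exact two-sided permutation test both gave p = 0.1, the smallest that 3 against 3 samples allow (0.1 after Benjamini-Hochberg adjustment over the 5 gene-to-gene ratios computed). The 5 ratios were chosen after the values were known, and the test cannot reach 0.05 at this size. It therefore adds no support beyond the values themselves.

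Among the repressors, E2F4 and E2F6 fell slightly, and E2F5, E2F7 and E2F8 did not pass. E2F4, the main partner of the pocket proteins in resting cells (ENSG00000205250, chromosome 16, 67192169 to 67198918, plus strand), was by far the most abundant member and held 49.3% to 50.1% of the summed E2F TPM in CSE and 49.3% to 50.8% in WT. It had 115.5, 116.4 and 114.1 TPM in CSE, against 135.9, 129.9 and 133.4 TPM in WT. The groups stood clear of each other, with 115 ± 1.15 TPM in CSE and 133 ± 3.02 TPM in WT (SD, n = 3 each). E2F4 thus fell by 13.3% (log2 fold change -0.20, SE 0.0386, limma adjusted p = 0.000156) and passed under all 15 alternatives (-0.26 to -0.19).

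E2F6, which represses without a pocket protein as part of a Polycomb complex (chromosome 2, 11444375 to 11466177, minus strand), had 22.7, 21.8 and 21.5 TPM in CSE, against 25.0, 27.7 and 24.7 TPM in WT. The groups did not overlap, and WT replicate 2 stood highest. E2F6 fell by 14.6% (log2 fold change -0.22, SE 0.0544, limma adjusted p = 0.00218) and passed under all 15 alternatives, with adjusted p between 0.000589 and 0.0337.

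E2F5, a close relative of E2F4 (chromosome 8, 85177225 to 85217158, plus strand), had 9.51, 9.37 and 9.37 TPM in CSE, against 9.52, 9.55 and 10.1 TPM in WT. The groups did not overlap, but by only 0.01 TPM, and the log2 fold change was -0.039 (95% interval -0.17 to 0.088, limma adjusted p = 0.618). The gene C8orf59 overlaps E2F5 on the opposite strand and averaged 49.6 TPM in CSE and 48.9 TPM in WT; since the strand setting of the counting is not given in the sources used here, reads of the pair may not be separable.

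E2F7 and E2F8, the atypical repressors known to hold down E2F1 transcription late in S phase, did not pass the test. E2F7 (chromosome 12, 77021247 to 77065580, minus strand) had 11.5, 11.9 and 9.89 TPM in CSE, against 11.3, 11.7 and 11.2 TPM in WT. E2F8 (chromosome 11, 19224063 to 19241620, minus strand) had 13.8, 12.9 and 11.1 TPM in CSE, against 13.4, 13.1 and 13.7 TPM in WT. In both genes CSE replicate 3 was the lowest of the 6 samples and the other CSE samples lay within or beside the WT values. The log2 fold change of E2F7 was -0.038 (95% interval -0.18 to 0.10, limma adjusted p = 0.658), or 0.036 without CSE replicate 3. That of E2F8 was -0.090 (95% interval -0.23 to 0.050, limma adjusted p = 0.276), and it ran from -0.15 without CSE replicate 1 to -0.0086 without CSE replicate 3.

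The pocket protein genes parted, with RBL1 lower and RB1 higher. RBL1, which encodes p107 and is known as an E2F target (ENSG00000080839, chromosome 20, 36996349 to 37095995, minus strand), had 7.60, 7.29 and 6.04 TPM in CSE, against 8.35, 9.18 and 8.29 TPM in WT. It was the lowest member in level and did not overlap between groups. RBL1 averaged 6.98 ± 0.826 TPM in CSE and 8.61 ± 0.497 TPM in WT (SD, n = 3 each) and fell by 18.9% (log2 fold change -0.27, SE 0.0765, limma adjusted p = 0.00533). It passed under all 15 alternatives; without CSE replicate 3 its log2 fold change was -0.18 (adjusted p = 0.0227).

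RB1, the retinoblastoma tumour suppressor (ENSG00000139687, chromosome 13, 48303726 to 48599436, plus strand), had 37.8, 37.9 and 33.5 TPM in CSE, against 33.4, 33.2 and 29.6 TPM in WT. The groups touched but did not overlap: the lowest CSE value, replicate 3, exceeded the highest WT value by less than the spread within either group. RB1 averaged 36.4 ± 2.49 TPM in CSE and 32.1 ± 2.11 TPM in WT (SD, n = 3 each). It rose 1.14-fold (limma adjusted p = 0.0123), with a log2 fold change of 0.18 and an SE of 0.0564. The call was lost without WT replicate 3 (0.12, adjusted p = 0.0982), with mitochondrially encoded genes left out (0.12, adjusted p = 0.0714) and without the filter on low values (adjusted p = 0.0636). Mitochondrially encoded genes held 25.5% to 25.8% of the TPM in CSE samples and 27.0% to 30.2% in WT samples. The protein-coding genes LPAR6 and RCBTB2, which overlap RB1 on the opposite strand, averaged 0.0433 and 0.86 TPM in CSE and 0.0267 and 0.453 TPM in WT.

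RBL2, which encodes p130 and was taken as the remaining pocket protein, had 41.5, 41.1 and 37.4 TPM in CSE, against 40.6, 42.2 and 42.2 TPM in WT (log2 fold change -0.059, limma adjusted p = 0.33), and its groups overlapped. The ratio of RBL1 to RB1 within a sample was 0.201, 0.192 and 0.180 in CSE, against 0.250, 0.276 and 0.280 in WT. Every CSE ratio lay below every WT ratio (exact two-sided permutation test, p = 0.1, the smallest the design allows; 0.1 after adjustment over the 5 ratios). This ratio too was chosen after the values were known, so the test adds no support.

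The summed activators and the summed repressors were both lower in CSE, and the ratio between the sums overlapped between the groups. Summed TPM of E2F1 to E2F3 was 61.2, 62.6 and 61.7 in CSE, against 76.0, 71.5 and 69.4 in WT. Summed TPM of E2F4 to E2F8 was 173.0, 172.4 and 165.9 in CSE, against 195.1, 191.9 and 193.1 in WT. Every CSE sum was below every WT sum. The ratio of activators to repressors was 0.363 ± 0.00905 in CSE and 0.374 ± 0.0151 in WT (SD, n = 3 each), with overlapping values, and was not tested. The E2F1 difference carried most of the first sum and the E2F4 difference most of the second, since in TPM E2F4 differed more than any other member.

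Measured against RB1 and E2F4, E2F1 was lower in every CSE sample. The ratio of E2F1 to RB1 was 0.472, 0.485 and 0.610 in CSE, against 0.896, 0.875 and 0.926 in WT, and the ratio of E2F1 to E2F4 was 0.155, 0.158 and 0.179 in CSE, against 0.220, 0.224 and 0.206 in WT. In both, CSE replicate 3 stood nearest to WT without reaching it (exact two-sided permutation test, p = 0.1 each, the smallest possible; 0.1 after adjustment over the 5 ratios). The summed pocket genes RB1 and RBL1 were at 45.4, 45.2 and 39.6 TPM in CSE, against 41.7, 42.4 and 37.9 TPM in WT, and these values overlapped. These sums and ratios describe mRNA and were formed after the values of these data were known.

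**Figure D4:**
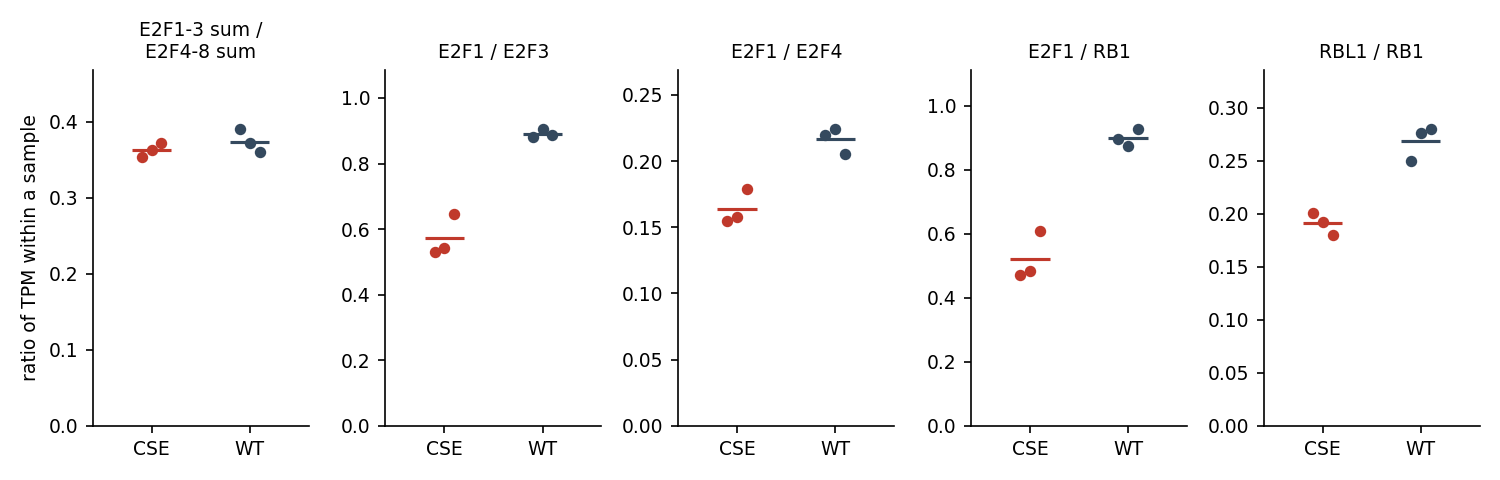
Ratios of TPM within each sample (vertical axes, each from 0) in CSE and WT; points are samples and bars are means of 3. The ratio of summed activators to summed repressors overlaps between the groups, while E2F1 over E2F3, E2F4 or RB1 and RBL1 over RB1 are lower in each CSE sample than in each WT sample.

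In order of level over all 6 samples, the family ran E2F4, RB1, E2F3, E2F6, E2F1, E2F8, E2F7, E2F2, E2F5 and RBL1. RB1 and E2F3 overlapped in both groups, as did E2F7 and E2F2. E2F6 and E2F1 were clear of each other in CSE, where the lowest E2F6 value was 21.5 TPM and the highest E2F1 value 20.5 TPM, but overlapped in WT. E2F8 and E2F7 overlapped in CSE and not in WT, and so did E2F2 and E2F5. CSE replicate 3 was the lowest CSE sample for 8 of 10 members, compared with 57.9% of all genes tested, and WT replicate 3 the lowest WT sample for 6 of 10, compared with 57.8% of all genes. Ties were counted for the lower replicate number, as for E2F5, where CSE replicates 2 and 3 were both at 9.37 TPM.

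By a rule applied to 10669 other genes with a mean of at least 5 TPM, the genes whose 6 values ran closest to those of E2F1 were HLA-B, TMEM200B and JDP2. Their distances were 0.0993, 0.102 and 0.112 on the log2(TPM + 1) scale, each gene taken relative to its WT mean. HLA-B, a class I antigen-presenting gene whose reads can be shared with close paralogs, had 311.2, 311.9 and 334.3 TPM in CSE, against 471.1, 476.3 and 457.6 TPM in WT. JDP2, a repressor of AP-1 sites, had 11.2, 11.0 and 12.2 TPM in CSE, against 19.0, 17.9 and 17.9 TPM in WT. TMEM200B had 7.68, 8.09 and 8.29 TPM in CSE, against 13.0, 12.2 and 11.8 TPM in WT. In all of them, as in E2F1, CSE replicate 3 was the highest CSE sample, a likeness that the rule itself favoured.

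The DP gene TFDP1, which pairs with the E2Fs, averaged 110.0 TPM in CSE and 113 TPM in WT (log2 fold change -0.042, limma adjusted p = 0.393), and TFDP2 averaged 29.5 TPM in CSE and 27.1 TPM in WT (0.12, adjusted p = 0.0606). TFDP1 passed as lower under quantile normalization (adjusted p = 0.0418) and with mitochondrially encoded genes left out (0.0221). TFDP2 passed as higher with median-of-ratios scaling (adjusted p = 0.0207), under quantile normalization (0.0361) and without CSE replicate 3 (0.17, adjusted p = 0.00418). TFDP3 was under the filter and not tested. Of 7 MuvB and MYB genes, whose products form the DREAM and MYB-MuvB complexes, 2 rose and 3 fell, or 71.4% called beside 50.1% of all genes. FOXM1 (0.27), the transcription factor of mitotic genes, and MYBL2 (0.18), which turns MuvB into an activator, rose. The MuvB core gene LIN52 fell (-0.39), as did LIN37 (-0.27), although LIN37 lost its call without WT replicate 1, WT replicate 3 or CSE replicate 2 (adjusted p = 0.0569, 0.0571 and 0.0903) and without the filter (0.0596).

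Of 8 RB kinases and cyclins tested, 2 rose and 2 fell, with 4 short of the threshold; this share called is at the background of 50.1% of all genes. CCNE1, the cyclin that starts S phase and a classical E2F target, had 29.8, 29.5 and 29.6 TPM in CSE, against 43.5, 40.8 and 39.7 TPM in WT (log2 fold change -0.47, limma adjusted p = 6.76e-08). CCND1, the G1 cyclin that starts RB1 phosphorylation, fell (-0.28), while CCNA2, the cyclin of S and G2, rose (0.46) and the G1 kinase gene CDK6 rose (0.33). The CDK inhibitor list counted 7 genes, of which 5 rose and 0 fell, beside 24.5% of all genes called higher, and its median was 0.28. CDKN2A, which encodes the CDK4 and CDK6 inhibitor p16 as well as ARF, rose, with 30.2 TPM in CSE and 17.4 TPM in WT (0.76, limma adjusted p = 8.47e-10). This gene-level value does not separate the p16 and ARF transcripts. CDKN2C, which encodes p18, rose with 4.74 TPM in CSE and 2.63 TPM in WT (0.66, limma adjusted p = 8.41e-07). The order of the pair turns with the pseudocount, since at 0.1 the log2 fold changes were 0.79 for CDKN2A and 0.83 for CDKN2C.

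Of 34 known E2F targets of the G1/S transition, 16 fell and 10 rose, so both directions were found, and the median log2 fold change was -0.13. The largest falls were those of CCNE1 (-0.47) and the checkpoint adaptor gene CLSPN (-0.43), with 12.6 TPM in CSE and 17.4 TPM in WT. The largest rises were those of RRM2 (0.57), a ribonucleotide reductase subunit, with 174 TPM in CSE and 117 TPM in WT, and of MCM7 (0.40), a subunit of the replicative helicase. All 20 targets of DREAM in G2/M rose, with a median of 0.61, led by HMMR (1.17) and KIF20A (1.04). With whole cultures, a changed share of cells in a phase and a changed RNA level per cell cannot be told apart, for rises or for falls. In both directions together, 76.5% of the G1/S targets and 100% of the G2/M targets were called, beside 50.1% of all genes.

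Among genes tied to single members, the changes were small. Of 8 apoptosis genes known as E2F1 targets, 2 rose and 2 fell, close to the background of all genes. BBC3, which encodes PUMA, rose (0.25) and so did PPP1R13B (0.19), while the BIM gene BCL2L11 (-0.27) and CASP8AP2 (-0.25) fell. The PPP1R13B call was lost under 5 alternatives, among them without WT replicate 2 (0.14, adjusted p = 0.152), without WT replicate 3 (adjusted p = 0.0628) and without CSE replicate 2 (adjusted p = 0.0613). Of 10 Polycomb partners of E2F6, 2 rose and 3 fell, a share called at the background of 50.1%. CBX3 (0.31) and RYBP (0.19) rose, and the largest falls were those of WDR5 and MAX (-0.26 each). Of 8 chromatin partners of RB1, 5 rose and 0 fell, beside 24.5% of all genes called higher. Those that rose included the deacetylase gene HDAC1 (0.37), with 295 TPM in CSE and 228 TPM in WT, and ARID4A (0.20), which lost its call without WT replicate 3 (adjusted p = 0.0564). RBBP4, counted with the MuvB genes and not among these 8, fell (-0.18, limma adjusted p = 0.00116).

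**Figure D5:**
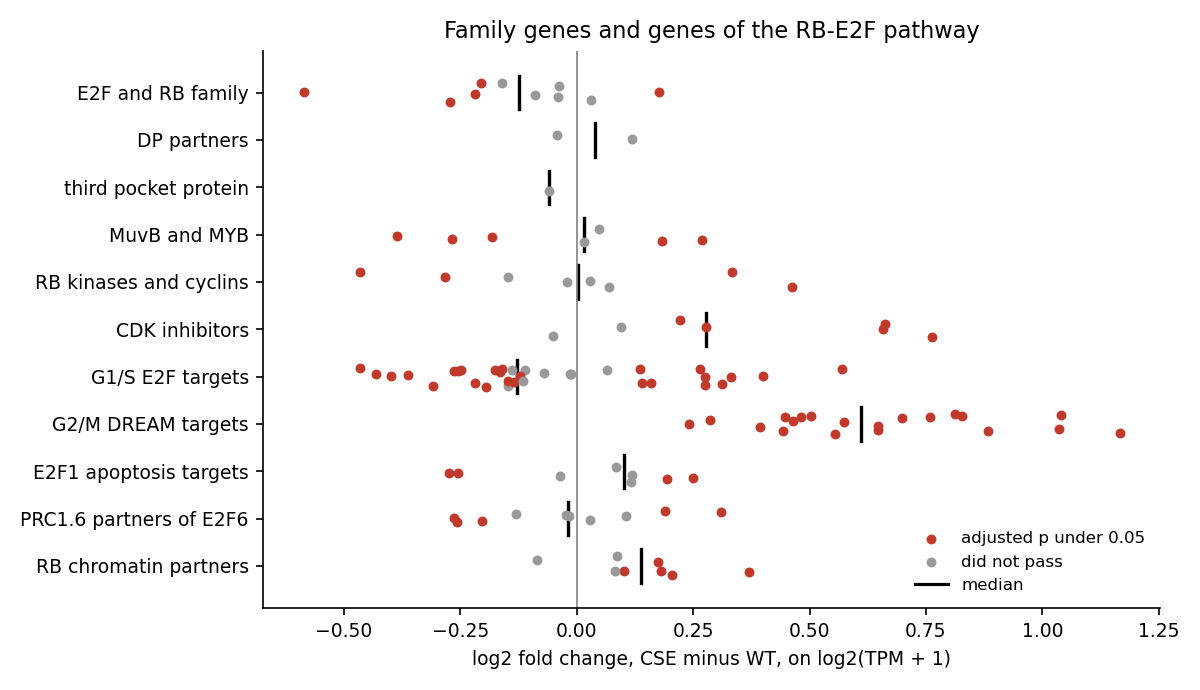
Log2 fold change, CSE minus WT on log2(TPM + 1), of the family genes (top row) and of the genes of each pathway list; each point is a gene, red where the adjusted p was under 0.05, and black bars are medians. The G2/M targets lie wholly above 0 with a median of 0.61, while the G1/S targets spread to both sides around -0.13.

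The libraries and the cell label were checked on the same table. The number of genes at 1 TPM or more was 12640 to 12740 in CSE and 12741 to 12778 in WT; the table holds no counts, so depth is unknown. Of 8 epithelial markers 7 averaged at least 1 TPM, and their sum was 5839 to 6140 TPM in CSE and 5626 to 5907 TPM in WT, with CEACAM5 near 0. Immune markers summed to 1.55 to 1.73 TPM in CSE and 1.98 to 3.08 TPM in WT, and endothelial markers to 1.31 to 1.53 TPM in CSE and 0.75 to 1.22 TPM in WT. Fibroblast markers summed to 38.0 to 38.7 TPM in CSE and 43.9 to 46.0 TPM in WT, nearly all of it COL1A1, while DCN was listed at 0 in every sample; the part of such cells in the results was not tested.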

How the data were processed

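The authors deposited 1 table of TPM for 20263 genes in 6 HCT116 libraries. Per the labels' protocols, RNA was Trizol-extracted, DNase-treated and made into mRNA libraries. Tools listed in the submitters' processing notes, with no roles, are HISAT2 2.0, Trimmomatic 0.36, bedtools 2.26.0 and FastQC 0.11.2; the build is GRCh38. Which program counted reads, with what annotation and strand setting, is not given in the sources used here. TPM columns share one total, so depth is unknown, and no count model, counting interval or detection floor was used; because TPM is a share, abundant transcripts move all others.

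Ensembl IDs were matched to symbols for 20148 genes, and positions came from GENCODE 29. Genes with at least 1 TPM in at least 3 libraries (12793) were compared, CSE minus WT, with limma 3.58.1 in R 4.3.3 on log2(TPM + 1), with a mean-variance trend and Benjamini-Hochberg adjustment at 0.05. This scale understates changes of low genes. Ratios were tested by exact permutation with scipy 1.17.1.

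The members, the pathway lists and the tests were chosen with earlier results of these data known. All members are named; of each list, the 2 called genes with the largest rise and the 2 with the largest fall (every tested gene in lists of up to 3), plus the 3 genes nearest to E2F1. Genes that overlap members, marker genes and RBBP4 were named besides. The fit was repeated with each sample left out, with replicate numbers as a block, without mitochondrially encoded genes, with quantile or median-of-ratios scaling, with a pseudocount of 0.1, without the filter or at a mean of at least 5 TPM, and with a robust or untrended variance prior. Promoters were taken from RefSeq on GRCh38.p14.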

Additional observations from a re-analysis of the deposited data

How the results depend on the processing

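E2F1, E2F4, E2F6 and RBL1 kept their direction and passed under all 15 alternatives. The count of members called lower was 4 or 5 throughout, the fifth being E2F2. The count called higher was 1 (RB1), and it was 0 without the filter on low values and 0 with mitochondrially encoded genes left out; leaving out single samples gave 0 to 1. The cause was not tested. E2F3 turned to -0.0255 with mitochondrially encoded genes left out, and E2F7 to 0.036 without CSE replicate 3; neither was called under any setting. Leaving out mitochondrially encoded genes moved the median of all genes to -0.058 and the share of calls that were higher in CSE to 34.3%, against 48.9% with TPM as deposited. With single samples left out, the log2 difference of the activator to repressor ratio ran from -0.071 to -0.012. Same-numbered CSE and WT samples did not deviate together (r of -0.071, 0.015 and -0.088 across genes), and CSE replicate 3 correlated best with WT replicate 1 (0.12), so the numbers were not taken to pair the samples. With the replicate number as a block, 6537 genes were called, against 6407 without it, and the same numbers of members (1 higher, 4 lower). The unknown depth and 3 samples per group limit what could be seen of changes as small as those of E2F5, E2F7 and E2F8.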
